A study of Mus musculus with 13 samples.

Results

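Type 2 immunity and alternative activation were followed in mouse lung through 10 genes: the alarmin Il33 and its receptor Il1rl1, the cytokines Il4 and Il13, the receptor chains Il4ra, Il13ra1 and Il13ra2, the transcription factor Stat6, and the effector genes Arg1 and Retnla. They were taken by symbol, and 10 of 10 were found among the 20270 genes of the tables. RNA of the lower right lobe was sequenced from 13 mice in 3 groups. Control mice (n = 4) were WT and had received saline, WT bleomycin mice (n = 5) were WT and CB1R KO bleomycin mice (n = 4) were Cnr1-/- on a C57Bl/6J background. Both bleomycin groups were taken 14 days after 1 U per kg, aspirated once through the pharynx. By the methods of the study the C57BL/6J mice were male, 13 weeks old and obtained from a supplier. The methods give no separate age or sex for the Cnr1-/- mice, which came from a generated line. CB1R is the cannabinoid receptor encoded by Cnr1, its deletion was not restricted to a cell type, and no untreated CB1R KO group was analysed here, so that a difference between CB1R KO and WT bleomycin lungs holds any difference between untreated genotypes as well.

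In type 2 immunity, damaged epithelial and stromal cells release IL-33, which acts through its receptor ST2, the product of Il1rl1, on group 2 innate lymphoid cells, mast cells and Th2 cells. These cells make IL-4 and IL-13, which bind receptors built from the IL-4Rα chain with the common γ chain or with IL-13Rα1 and signal through STAT6, whereas IL-13Rα2 binds IL-13 with high affinity and is known as a decoy. In macrophages this signal is known to switch on arginase 1 and RELMα, the products of Arg1 and Retnla, and in airway epithelium it drives mucus production. Both arms are known from bleomycin-injured lung, where IL-13 and alternatively activated macrophages have been linked to fibrosis.

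Total estimated counts ran from 14615904 to 16662580 in 12 libraries, and CB1R KO replicate 11 held 53463884. Cnr1 was counted in all 13 libraries and was not called in CB1R KO against WT bleomycin lungs (log2 fold change -0.53, adjusted p = 0.367 by edgeR's quasi-likelihood F test, adjusted after Benjamini and Hochberg over all genes tested, as for every edgeR adjusted p given here), so that its counts do not check the genotype and directions rest on the labels. Libraries are named by their group and the number in their label. Control replicate 21 stood apart from the other 3 controls in some of the genes described here: 12 of 15315 genes tested were more than 4-fold (2 on the log2 scale) above every other control there, among them Arg1 and Retnla. The corresponding counts for control replicates 3, 24 and 26 were 7, 1 and 2 genes, and as far below every other control lay 20 genes in replicate 21 and 16, 17 and 23 in the others. Over all genes it was replicate 3 that differed most, with a chi-square per degree of freedom of 19.1 to 26.1 against each other control, beside 8.07 to 15.1 among those. Fold changes against control are given with and without replicate 21 for Arg1, Retnla and Slc26a4. The same holds for the total counts of members and of other pathway genes called against control. The lung origin of the libraries was seen in the markers of type II alveolar cells, with summed TPM (a level scaled to depth and transcript length) between 19311 and 37711, and of 16 cell type marker lists the single marker at 0 in all libraries of a group was Tpsab1, a mast cell tryptase, in WT bleomycin lungs.

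STAT6 is known to bind 2 arms, TTC and GAA, separated by 4 bases. The motif TTCNNNNGAA, which reads the same on both strands, was looked for in the 250 bases before each annotated start of the members (RefSeq, GRCm38.p6). Of the 10 members 9 had an entry in the set of promoters used here, with 12 starts in all. Arg1 had no entry in that set and was not searched, which does not mean that it has no annotated start. Of the 12 starts 3, each of a different member, held 1 match, against 5.85% of 32851 promoters of all genes. These 3 are shown because they place the motif in an effector gene, a cytokine and the alarmin, with the match in capitals. The Retnla stretch (chr16:48842359-48842608, plus strand) holds it 145 bases before the start, the upstream of 2 starts of Il4 (chr11:53618666-53618915, minus strand) 167 bases before, and the upstream of 2 starts of Il33 (chr19:29924863-29925112, plus strand) 36 bases before.
Retnla: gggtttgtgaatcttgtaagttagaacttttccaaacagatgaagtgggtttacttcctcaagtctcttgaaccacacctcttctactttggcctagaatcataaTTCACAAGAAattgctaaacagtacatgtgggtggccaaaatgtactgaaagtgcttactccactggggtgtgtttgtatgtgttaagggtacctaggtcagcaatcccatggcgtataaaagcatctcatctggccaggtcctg
Il4: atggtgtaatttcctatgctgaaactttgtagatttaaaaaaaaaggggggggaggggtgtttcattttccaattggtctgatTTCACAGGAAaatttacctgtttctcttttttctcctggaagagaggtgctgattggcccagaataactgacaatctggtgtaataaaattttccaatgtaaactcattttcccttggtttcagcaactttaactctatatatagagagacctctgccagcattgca
Il33: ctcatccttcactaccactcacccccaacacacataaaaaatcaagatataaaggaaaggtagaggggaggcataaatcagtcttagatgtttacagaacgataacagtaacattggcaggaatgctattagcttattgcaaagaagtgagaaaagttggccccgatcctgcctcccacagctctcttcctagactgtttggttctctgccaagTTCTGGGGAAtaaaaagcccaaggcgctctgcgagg
No match was found before the starts of Il13, Il1rl1, Il4ra, Il13ra1, Il13ra2 and Stat6, nor before the other start of Il4 and of Il33, which says only that these letters are not in those windows. The shorter spacing used by other STAT proteins, TTCNNNGAA, occurred before none of the members' starts and in 7.02% of all promoters. A match describes letters and not binding.

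In WT lungs after bleomycin, 3 receptor genes and Retnla rose, Stat6 fell, and the 2 cytokine genes stayed at a few counts per library. The count filter passed 7 of the 10 members and left out Il4, Il13 and Il13ra2. Of these 7, 5 were called between WT bleomycin and control lungs at an adjusted p under 0.05, where 48.9% of all 15315 genes tested were called. Il4ra, Il13ra1, Il1rl1 and Retnla rose (25.0% of all genes did) and Stat6 fell (23.9% did), with a median log2 fold change of 0.81 over the 7 members and of -0.01 over all genes. The same 5 did not overlap between the groups, against 40.3% of all genes, and their calls held in 24 of 24 alternatives. Without control replicate 21 all 7 were called, beside 6806 of 15411 genes, since Arg1 and Il33 then passed. In CB1R KO against WT bleomycin lungs no member was called by edgeR, where 0.979% of all genes were, while 2 of the 7 (Il4ra and Retnla) had an unadjusted p under 0.05, as did 17.0% of all genes. DESeq2 called 1 member, Il4ra, beside 644 of 15218 genes. Both Il4ra and Retnla were lower in all 4 CB1R KO libraries than in any WT bleomycin library, and 3.12% of all genes lay apart in that direction. With the CB1R KO bleomycin lungs set against control, 6 of 7 members were called, beside 35.4% of all genes: 5 rose (19.0% of all genes did) and Stat6 fell (16.3% did). In that comparison 5 members did not overlap, beside 33.5% of all genes. Without control replicate 21, 7 members were called in it, beside 4714 of 15411 genes. These last comparisons share their groups with the first, so that they are not independent of each other.

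**Figure D1:**
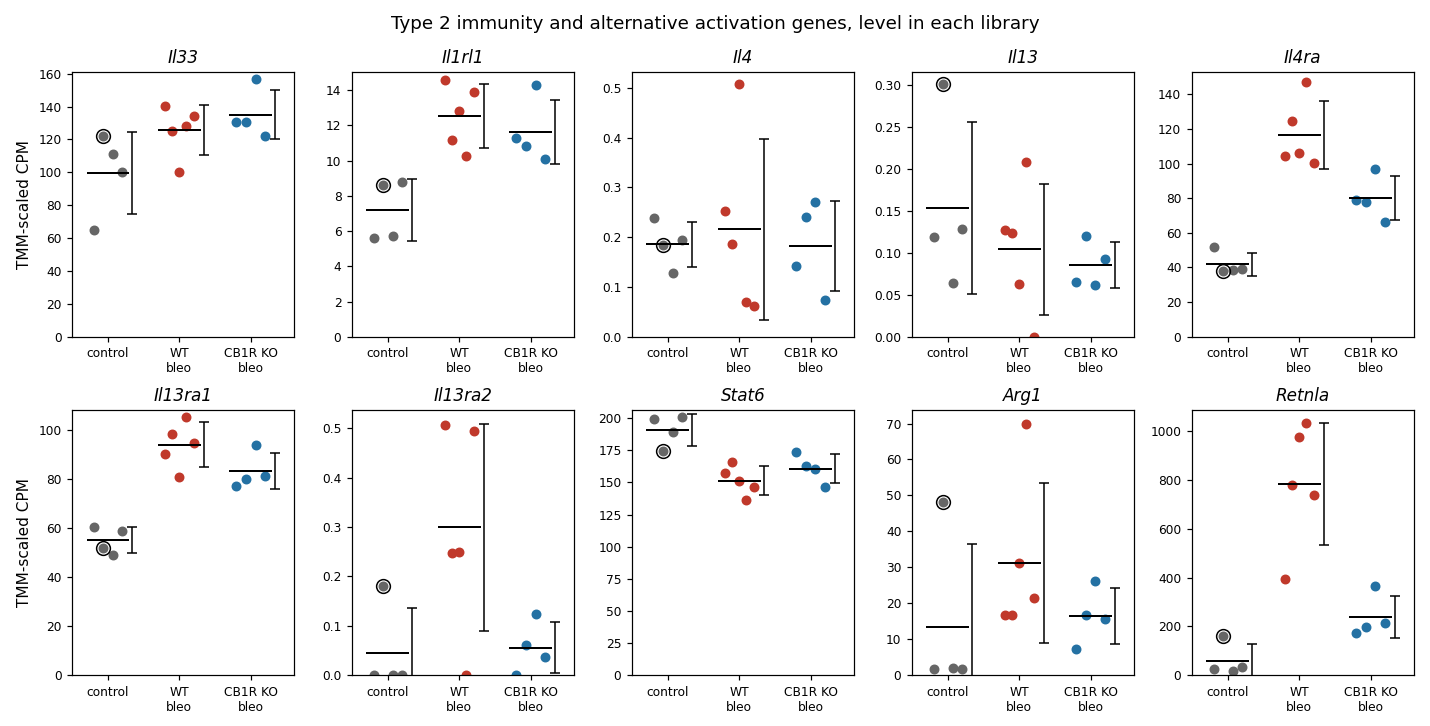
TMM-scaled CPM (counts scaled to library size, linear axis from 0) of each of the 10 genes in each of the 13 libraries, by group. Points are libraries, the horizontal line is the group mean, the bar is ± 1 SD (cut off at 0) and the ring marks control replicate 21. Il4ra and Retnla separate into 3 levels, the highest in WT bleomycin lungs, while Il4 and Il13 lie under 0.6 CPM in every library.

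Il33, the alarmin, was abundant in all groups. It was measured at 65.2, 122, 111 and 99.9 CPM in control replicates 3, 21, 24 and 26, at 140, 125, 100.3, 128 and 134 CPM in WT bleomycin replicates 4, 2, 5, 4-B2 and 7, and at 131, 131, 157 and 122 CPM in CB1R KO replicates 8, 9, 10 and 11. The groups overlapped, and control replicate 3 was the lowest library. Against control, WT bleomycin lungs were not called (log2 fold change 0.33, SE 0.15, edgeR adjusted p = 0.0765). It was called without control replicate 21 (0.45, edgeR adjusted p = 0.029) and without WT bleomycin replicate 5 (0.41, adjusted p = 0.0388). In CB1R KO bleomycin lungs Il33 was called higher than in the controls (0.44 on the log2 scale, SE 0.16, edgeR adjusted p = 0.041), and that call was lost in 8 of 24 alternatives. Among these were the fits without control replicate 3 (adjusted p = 0.073) or 26 (0.0747), WT bleomycin replicate 2 (0.0509), or CB1R KO replicate 8 (0.0565), 9 (0.0555) or 10 (0.117). For CB1R KO minus WT bleomycin the 95% interval of its log2 fold change ran from -0.21 to 0.42.

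Il1rl1 encodes ST2 in a membrane and a soluble form, which the gene sums do not separate. Its level was 5.63, 8.62, 5.72 and 8.78 CPM in the controls (order as for Il33), 14.6, 11.2, 12.8, 10.2 and 13.9 CPM in WT bleomycin lungs, and 11.3, 10.8, 14.3 and 10.1 CPM in CB1R KO bleomycin lungs. All 9 bleomycin libraries lay above all 4 controls, and the bleomycin groups overlapped. Il1rl1 rose by 0.81 on the log2 scale (SE 0.17, edgeR adjusted p = 0.00123) in WT bleomycin and by 0.69 (SE 0.18, adjusted p = 0.00735) in CB1R KO bleomycin lungs against control, and both calls held in 24 of 24 alternatives. The difference between CB1R KO and WT bleomycin lungs was -0.12, with a 95% interval from -0.46 to 0.23.

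Il4 and Il13, the cytokines of the pathway, were close to the limit of detection in every group. Il4 was counted 4, 3.1, 2 and 3 times in the controls, 4, 3, 8.1, 1 and 1 times in WT bleomycin and 2.2, 4, 4.3 and 4 times in CB1R KO bleomycin libraries. Il13 was counted 2, 5, 1 and 2 times, 2, 2, 1, 3 and 0 times, and 1, 2, 1 and 5 times in the same order. The groups overlapped for both cytokines, and CB1R KO replicate 11 reached its counts from a library 3.33 times as deep as the median of the others. The 0 of Il13 in WT bleomycin replicate 7 allows a level of up to 0.185 CPM, the value of 3 counts there, which like all counting limits covers counting error only. Two-sided exact permutation tests of the CPM gave p from 0.229 to 0.971 over the 6 comparisons of these 2 genes, with adjusted p from 0.686 to 0.971 over 12 exact tests (n = 4 or 5 per group). At this depth no difference in either cytokine was detected.

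Il4ra, the chain shared by both receptors, had the lowest adjusted p of the 7 members tested, in both bleomycin groups against control. It was measured at 51.7, 38.2, 38.6 and 39.1 CPM in the controls, at 104.6, 125, 106, 147 and 100.5 CPM in WT bleomycin lungs and at 78.8, 77.7, 96.9 and 66.4 CPM in CB1R KO bleomycin lungs. The 3 groups did not overlap with each other. Il4ra rose 2.78-fold in WT bleomycin lungs (log2 fold change 1.48, SE 0.14, edgeR adjusted p = 1.34e-06) and 1.9-fold in CB1R KO bleomycin lungs (0.93, SE 0.14, adjusted p = 0.000209) against control. In CB1R KO against WT bleomycin lungs its log2 fold change was -0.55 (SE 0.13, 95% interval -0.83 to -0.26), with an unadjusted p of 0.000973 and an edgeR adjusted p of 0.0648. That difference was thus not called, and it was called in 3 of 24 alternatives: by DESeq2 (adjusted p = 0.00594) and by edgeR without control replicate 3 (0.0474) or CB1R KO replicate 10 (0.0193). The log2 fold change lay between -0.65 and -0.45 in all 24 alternatives.

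Il13ra1, the chain that pairs with IL-4Rα outside the lymphoid lineage, followed a similar but flatter course. The values were 60.2, 51.7, 49.1 and 58.8 CPM in the controls, 90.3, 98.5, 80.8, 105.2 and 94.4 CPM in WT bleomycin and 77.3, 80.1, 93.8 and 81.2 CPM in CB1R KO bleomycin lungs. Every bleomycin library was above every control, and the bleomycin groups overlapped. It rose 1.71-fold in WT bleomycin lungs (log2 fold change 0.77, SE 0.09, edgeR adjusted p = 7.83e-06) and 1.51-fold in CB1R KO bleomycin lungs (0.60, SE 0.09, adjusted p = 0.000222). The difference between CB1R KO and WT bleomycin lungs, -0.18 on the log2 scale, was not called (edgeR adjusted p = 0.32).

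Il13ra2, the decoy chain, was counted 0, 3, 0 and 0 times in the controls, 8, 4, 4, 0 and 8 times in WT bleomycin libraries and 0, 1, 2 and 2 times in CB1R KO bleomycin libraries. Of the 5 WT bleomycin libraries, 4 held more counts than any library of the other groups, and replicate 4-B2 held none. The libraries at 0 allow levels of up to 0.178 to 0.208 CPM, the value of 3 counts in each. In two-sided exact permutation tests the mean of 0.30 ± 0.21 CPM (SD, n = 5) in WT bleomycin lungs did not pass against 0.05 ± 0.09 CPM (n = 4) in control (p = 0.0794, adjusted p = 0.476) or against 0.06 ± 0.05 CPM (n = 4) in CB1R KO bleomycin lungs (p = 0.0794, adjusted p = 0.476), where the smallest p that 5 against 4 libraries allow is 0.0159. Without WT bleomycin replicate 4-B2 both exact p were 0.0286, the smallest that 4 against 4 allow, and unadjusted. With no count filter edgeR gave log2 fold changes of 2.54 (adjusted p = 0.0569) against control and -2.42 (adjusted p = 0.236) for CB1R KO against WT bleomycin lungs. The log2 ratio of Il13ra2 to Il13ra1 TPM, with 0.1 added to both, was -7.49 ± 0.64 in control, -6.91 ± 1.09 in WT bleomycin and -7.89 ± 0.40 in CB1R KO bleomycin lungs (SD, n = 4, 5 and 4), and its 3 exact permutation tests gave p = 0.381 for WT bleomycin minus control, 0.127 for CB1R KO minus WT bleomycin and 0.4 for CB1R KO bleomycin minus control. With 1 added in place of 0.1 the difference between WT bleomycin and control turned from 0.57 to -0.49 (exact permutation p = 0.0317), and that between CB1R KO bleomycin and control was -0.62 (p = 0.0286). Il13ra2 did not exceed 0.56 TPM in any library, so that with 1 added the ratio mainly follows Il13ra1. These 2 p are thus no separate result on the decoy chain.

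Stat6, the transcription factor below these receptors, fell in both bleomycin groups. It was measured at 199, 174, 189 and 201 CPM in the controls, at 157, 166, 151, 136 and 147 CPM in WT bleomycin and at 174, 163, 160.4 and 147 CPM in CB1R KO bleomycin lungs. All 9 bleomycin libraries lay below all controls, the closest pair being CB1R KO replicate 8 at 173.7 and control replicate 21 at 174.2 CPM. The log2 fold change against control was -0.33 (SE 0.07, edgeR adjusted p = 0.00115) in WT and -0.25 (SE 0.07, adjusted p = 0.0171) in CB1R KO bleomycin lungs. The second call was lost without CB1R KO replicate 11 (-0.20, edgeR adjusted p = 0.06) and on the TPM scale in limma (adjusted p = 0.162 and 0.164 with 1 and 0.1 added). The 2 bleomycin groups differed by 0.09 (edgeR adjusted p = 0.561). The RNA level does not report the phosphorylated, active form of the protein.

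**Figure D2:**
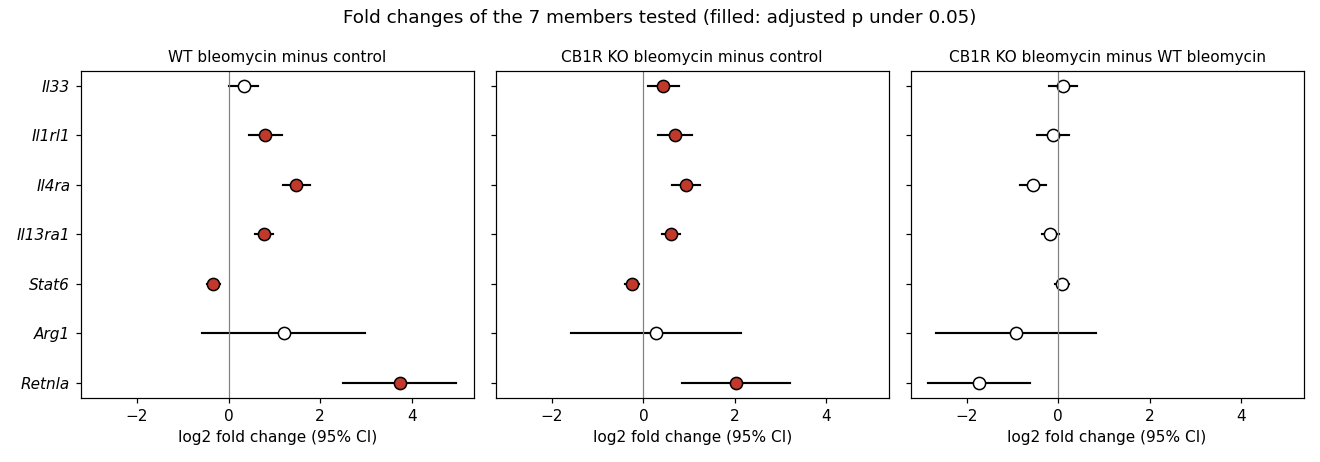
log2 fold change (points) with its 95% interval (lines) from edgeR for the 7 members that passed the count filter, in the 3 comparisons. Filled points had an adjusted p under 0.05. The intervals of Arg1 and Retnla are the widest, and in CB1R KO minus WT bleomycin the intervals of Il4ra and Retnla lie below 0 while no point is filled.

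Arg1 encodes arginase 1, which turns arginine into ornithine, and its comparison with control depended on 1 control library and on the test. Control replicates 3, 24 and 26 held 1.78, 1.86 and 1.80 CPM, whereas control replicate 21 held 48.2 CPM. WT bleomycin libraries held 16.7, 16.7, 31.2, 69.8 and 21.6 CPM and CB1R KO bleomycin libraries 7.17, 16.6, 26.1 and 15.6 CPM. Every bleomycin library was above 3 of the 4 controls, and only WT bleomycin replicate 4-B2 was above the other one. With all controls the log2 fold change in WT bleomycin lungs was 1.21 (SE 0.83, edgeR adjusted p = 0.249), and without control replicate 21 it was 4.10 (adjusted p = 0.000125). With all controls limma called it on the TPM scale, with log2 differences of 2.32 (1 added, limma adjusted p = 0.021) and 2.67 (0.1 added, adjusted p = 0.0165). For CB1R KO bleomycin against control the values were 0.28 (SE 0.87, edgeR adjusted p = 0.825) and 3.17 (adjusted p = 0.00182). CB1R KO and WT bleomycin lungs overlapped, with a log2 fold change of -0.92 and a 95% interval from -2.67 to 0.82. The spread behind this interval was estimated over all 13 libraries, control replicate 21 among them. Without that library the log2 fold change was again -0.92, with an unadjusted edgeR p of 0.0444 and an adjusted p of 0.291.

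Retnla, which encodes the secreted protein RELMα, had the largest fold change of the 7 members tested in each of the 3 comparisons. It was measured at 26.5, 159, 17.9 and 32.2 CPM in the controls, at 396, 782, 976, 1033 and 737 CPM in WT bleomycin and at 174, 199, 364 and 215 CPM in CB1R KO bleomycin lungs. The 3 groups did not overlap, although control replicate 21 reached almost the lowest CB1R KO library and CB1R KO replicate 10 almost the lowest WT bleomycin library. Retnla rose 13.3-fold in WT bleomycin lungs (log2 fold change 3.74, SE 0.58, edgeR adjusted p = 0.000105), or by 4.94 on the log2 scale without control replicate 21 (adjusted p = 7.32e-07). In CB1R KO bleomycin lungs it rose 4.04-fold against control (2.01, SE 0.55, edgeR adjusted p = 0.0113), or by 3.22 without control replicate 21 (adjusted p = 2.86e-05), and that call was missed in the libraries with lower-case titles only (adjusted p = 0.0507). The level in CB1R KO was 0.303 of that in WT bleomycin lungs (log2 fold change -1.72, SE 0.52, 95% interval -2.84 to -0.61), with an unadjusted p of 0.00501 and an edgeR adjusted p of 0.122, so that it was not called. It was called in 2 of 24 alternatives, in edgeR on the bleomycin groups alone (adjusted p = 0.0341) and without control replicate 21 (0.0241). The log2 fold change stayed between -1.998 and -1.595 in all 24. By the size of this difference Retnla ranked 41 of 15315 genes. The transcripts of Retnla share 5.45% of their 31-base words with the paralog Retnlg, and no other member shared more than 0.35% with another coding gene (GENCODE vM21).

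Levels can be compared between genes in TPM. In WT bleomycin lungs Retnla was the highest of the members at 2779 ± 829 TPM (SD, n = 5), followed by Il33 at 81.5 ± 10.0 and Stat6 at 60.7 ± 6.3 TPM, whose ranges overlapped. Il13ra1 (38.2 ± 3.5), Il4ra (35.1 ± 6.3) and Arg1 (34.4 ± 23.6 TPM) came next and overlapped with each other. Il1rl1 lay at 4.71 ± 0.84, and Il4, Il13ra2 and Il13 lay under 1 TPM on average. In control lungs Il4ra, at 12.2 ± 2.4 TPM (SD, n = 4), lay below Il13ra1 at 21.8 ± 2.3 TPM, with no overlap. The order of the 7 highest genes in CB1R KO bleomycin lungs was that of WT bleomycin lungs, with Retnla at 861 ± 320 TPM (SD, n = 4) and Il33 at 94.0 ± 9.8 TPM.

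Cell type markers moved in the same comparisons. Their counts stand beside the shares of all genes, of which 25.0% rose and 23.9% fell in WT bleomycin lungs against control. In CB1R KO against WT bleomycin lungs 0.979% of all genes were called. Of 10 markers of monocyte-derived and interstitial macrophages, 10 rose in WT bleomycin lungs against control, with a summed level of 331 to 443 TPM in control, 1452 to 1709 TPM in WT bleomycin and 1041 to 1650 TPM in CB1R KO bleomycin lungs. In bulk RNA more cells of a type and more RNA per cell cannot be told apart. In CB1R KO minus WT bleomycin none of these 10 was called by edgeR, with a median log2 fold change of -0.25. The alveolar macrophage list held 2 higher and 4 lower calls of 9 in WT bleomycin lungs, and its summed level was highest of all controls in replicate 21, at 2074 TPM against 799.8 to 870.2 TPM in the others. Chil3, a macrophage chitinase-like protein that is also on the alternative activation list, made up 1621 TPM of it in replicate 21 and 401.8 to 466.3 TPM in the other controls, and without Chil3 the sums were 453 TPM and 398 to 406.9 TPM. Markers of group 2 innate lymphoid and Th2 cells, a list that includes Il1rl1 and several pathway genes, had 5 higher and 2 lower calls of 8 tested. Eosinophil markers had no higher and 1 lower call of 5 tested, and their sums overlapped among all groups (10.6 to 22.0 TPM). Of these markers Siglecf, which is also on the alveolar macrophage list, reached 11.8 TPM, whereas Epx did not exceed 0.087 TPM in any library. Type II alveolar cell markers fell in 6 of 8 cases in WT bleomycin lungs, and 3 of 8 were higher in CB1R KO than in WT bleomycin lungs. The part of these cell types in the results above was not tested.

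The other genes of the pathway were read from a list of 68 symbols in 6 roles, of which 65 were in the tables and 59 passed the filter. In WT bleomycin lungs 32 rose and 5 fell against control, 37 of 59 or 62.7%, beside 48.9% of all genes. In CB1R KO bleomycin lungs 21 rose and 2 fell, 23 of 59 or 39.0%, beside 35.4% of all genes (5415 of 15315). The total was 15 without control replicate 24, beside 4535 of 15421 genes. It was also 15 without CB1R KO replicate 10, beside 4272 of 15417 genes. Without control replicate 21 the totals against control were 36 in WT and 20 in CB1R KO bleomycin lungs, beside 6806 and 4714 of 15411 genes. Of the 59, 3 were called in CB1R KO against WT bleomycin, all lower in CB1R KO (5.08%, beside 0.620% of all genes), and 46 of the 59 fold changes were below 0 with a median of -0.20, beside a median of 0.00 over all genes. The 3 were Muc5ac, Fcgbp and Socs3. These counts depended on single libraries and on the case of the titles, which are lower-case for all 4 CB1R KO libraries and for WT bleomycin replicates 4, 2 and 5, but not for 4-B2 and 7. None was called with the letter case of the titles as a term, nor in the libraries with lower-case titles only. None was called without WT bleomycin replicate 5 or without CB1R KO replicate 8, 9 or 11, whereas 1 was called without WT bleomycin replicate 4-B2, 2 without control replicate 21, 5 without WT bleomycin replicate 4 and 6 without CB1R KO replicate 10. Calls over all genes moved too, from 150 of 15315 in the main fit. They were 41 with the title term and 6 in lower-case titles only. Without WT bleomycin replicate 5 they were 24, and without CB1R KO replicate 8, 9 or 11 they were 9, 1 and 3. Without WT bleomycin replicate 4-B2, control replicate 21, WT bleomycin replicate 4 and CB1R KO replicate 10 they were 30, 110, 230 and 653.

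**Figure D3:**
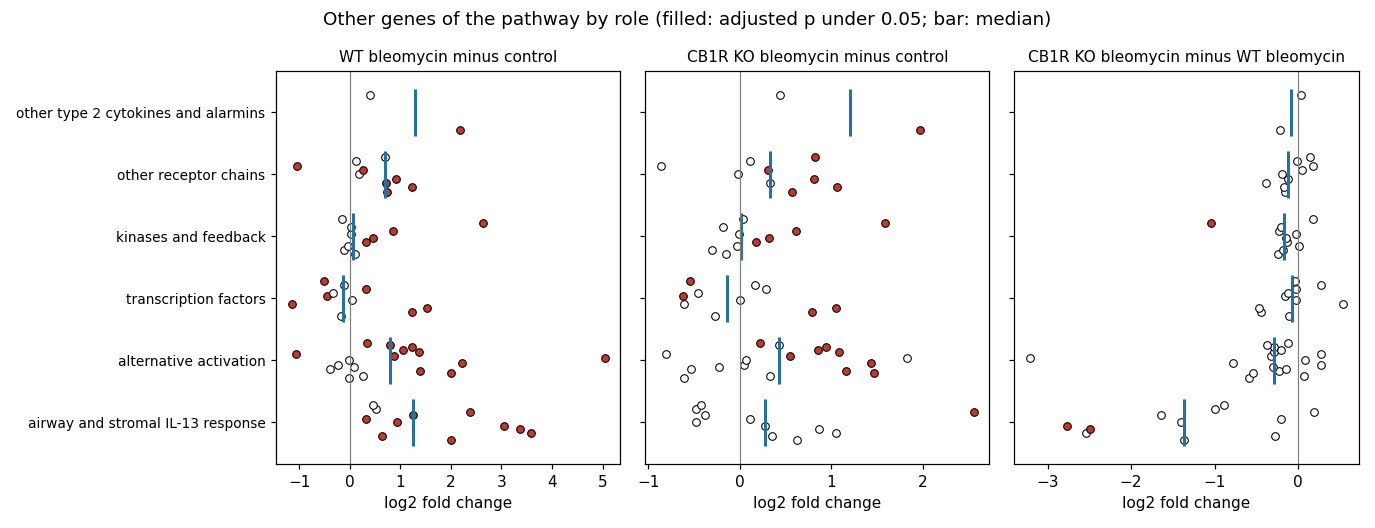
log2 fold change of the 59 other pathway genes that passed the count filter, by role, in the 3 comparisons (each panel has its own horizontal scale). Points are genes, filled where the adjusted p was under 0.05, and the vertical bar is the median of the role. The airway and stromal IL-13 response has a median of 1.26 in WT bleomycin minus control and of -1.37 in CB1R KO minus WT bleomycin.

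Among the cytokines and alarmins of the list, Areg, the growth factor amphiregulin made by innate lymphoid and other cells, rose in WT bleomycin lungs (log2 fold change 2.18, SE 0.37, edgeR adjusted p = 0.000212), and 4 of 6 genes of this role were under the filter. Of 9 other receptor chains, 5 rose and 1 fell (66.7% called, beside 48.9% of all genes). Csf2rb, the shared β chain of the IL-3, IL-5 and GM-CSF receptors, changed by 1.23, Crlf2, the TSLP receptor chain, by 0.73, Il17rb, an IL-25 receptor chain, by 0.92 and Il17ra by 0.71 on the log2 scale. None of the 9 was called between the bleomycin groups by edgeR, and 1 had an unadjusted p under 0.05, beside 17.0% of all genes.

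Of 10 kinases and feedback genes, 4 rose in WT bleomycin lungs, Socs3, Socs1, Jak2 and Jak3, and none fell, so that 4 of 10 were called, a lower share than the 48.9% of all genes. Socs3, an inhibitor of cytokine receptors induced by STAT3, was measured at 54.5, 44.3, 39.2 and 37.8 CPM in the controls, at 287, 188, 314, 365 and 203 CPM in WT bleomycin and at 137, 108, 161 and 122 CPM in CB1R KO bleomycin lungs. The 3 groups did not overlap. It rose 6.17-fold in WT bleomycin lungs (log2 fold change 2.63, SE 0.20, edgeR adjusted p = 2.48e-07) and was 2.06-fold lower in CB1R KO than in WT bleomycin lungs (-1.04, SE 0.19, adjusted p = 0.0231), a call that held in 17 of 24 alternatives and was lost without WT bleomycin replicate 5 or 4-B2 or CB1R KO replicate 8, 9 or 11 (adjusted p from 0.0566 to 0.0946), with the letter case of the titles as a term (0.0554) and in lower-case titles only (0.0966). Socs1, the feedback inhibitor of the IL-4 receptor, rose by 0.85 on the log2 scale in WT bleomycin lungs (SE 0.19, edgeR adjusted p = 0.00198), and its difference between the bleomycin groups was -0.23 (adjusted p = 0.552). Jak2 and Jak3 rose by 0.31 and 0.46.

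Of 10 transcription factors, 3 rose and 3 fell in WT bleomycin lungs, beside 25.0% and 23.9% of all genes. Egr2 and Bhlhe40, both found in alternatively activated macrophages, rose by 1.53 and 1.23 on the log2 scale. Gata3 and Rora, the lineage factors of Th2 cells and group 2 innate lymphoid cells, fell by 1.15 (SE 0.27, edgeR adjusted p = 0.0026) and 0.50 (SE 0.12, adjusted p = 0.0024). Both lineage factors are also expressed outside lymphocytes. No member of this role was called between the bleomycin groups by edgeR, with 2 of 10 at an unadjusted p under 0.05, beside 17.0% of all genes.

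Of 17 alternative activation genes beside Arg1 and Retnla, 10 rose and 1 fell in WT bleomycin lungs (64.7% called, beside 48.9% of all genes). Mgl2, a macrophage lectin, rose by 1.37, the mannose receptor Mrc1 by 1.06, the chemokine Ccl17 by 2.01 and the cholesterol 25-hydroxylase Ch25h by 2.21 on the log2 scale. In CB1R KO minus WT bleomycin 0 of the 17 were called by edgeR, 5 had an unadjusted p under 0.05 (17.0% of all genes did), and 13 of 17 fold changes were below 0. DESeq2 called 3 of them lower in CB1R KO, Mgl2 (-0.29, DESeq2 adjusted p = 0.0385), Ch25h (-0.79, 0.0323) and Chil4 (-3.14, 0.0274). Of all genes DESeq2 called 644 of 15218 there. In edgeR Mgl2 (-0.30, edgeR adjusted p = 0.108) and Ch25h (-0.78, adjusted p = 0.123) did not overlap between the bleomycin groups, whereas Mrc1 (-0.20) and Ccl17 (-0.54) did. Of all genes 3.12% lay lower in CB1R KO without overlap.

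Of the airway and stromal genes that IL-13 is known to induce, 11 passed the filter. In WT bleomycin lungs against control 9 of them rose and none fell (81.8% called, beside 48.9% of all genes). In CB1R KO bleomycin lungs against control 1 of 11 was called (Slc26a4, 9.09% beside 35.4% of all genes). Between CB1R KO and WT bleomycin lungs 2 of 11 were called lower (18.2%, beside 0.620% of all genes). There 10 of 11 fold changes were below 0, with a median of -1.37, beside a median of 0.00 over all genes. Muc5ac, an airway mucin, was measured at 2.79, 3.12, 3.14 and 3.67 CPM in the controls, at 9.12, 13.2, 44.4, 50.6 and 14.1 CPM in WT bleomycin and at 4.25, 4.64, 4.60 and 2.38 CPM in CB1R KO bleomycin lungs. CB1R KO libraries overlapped with control and lay below every WT bleomycin library, of which replicates 5 and 4-B2 were the highest. Muc5ac rose 8.24-fold in WT bleomycin lungs (log2 fold change 3.04, SE 0.50, edgeR adjusted p = 0.000166) and was 6.82-fold lower in CB1R KO than in WT bleomycin lungs (-2.77, SE 0.48, adjusted p = 0.0219). The call held in 17 of 24 alternatives and was lost without WT bleomycin replicate 5 or CB1R KO replicate 8, 9 or 11 (edgeR adjusted p from 0.0565 to 0.0786), with the letter case of the titles as a term (0.0554), in lower-case titles only (0.0977) and in limma on log2(TPM + 1) (0.0532).

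Fcgbp, a mucus protein that binds IgG, was measured at 1.47, 1.34, 1.25 and 2.95 CPM in the controls, 7.56, 9.42, 43.3, 20.8 and 9.40 CPM in WT bleomycin and 4.62, 2.77, 4.62 and 1.43 CPM in CB1R KO bleomycin lungs. It was 5.64-fold lower in CB1R KO than in WT bleomycin lungs (log2 fold change -2.50, SE 0.54, edgeR adjusted p = 0.0416), and this call held in 10 of 24 alternatives. It was lost without control replicate 21 or 24, WT bleomycin replicate 2, 5, 4-B2 or 7, or CB1R KO replicate 8, 9 or 11 (edgeR adjusted p from 0.0544 to 0.146), and without WT bleomycin replicate 5, its highest library, the log2 fold change was -1.86. It was also lost with the letter case of the titles as a term (edgeR adjusted p = 0.0978), in lower-case titles only (0.141), in edgeR on the bleomycin groups alone (0.0738) and in limma (0.0837 and 0.0695 with 1 and 0.1 added). Slc26a4, the anion exchanger pendrin, took another course. It was measured at 3.80, 23.7, 2.95 and 2.08 CPM in the controls, 39.4, 49.9, 40.4, 45.8 and 36.7 CPM in WT bleomycin and 43.2, 47.5, 46.8 and 54.7 CPM in CB1R KO bleomycin lungs. It rose by 2.37 (SE 0.50, edgeR adjusted p = 0.00121) in WT and by 2.56 (SE 0.51, adjusted p = 0.00152) in CB1R KO bleomycin lungs against control, or by 3.84 and 4.03 without control replicate 21. The bleomycin groups overlapped, with a difference of 0.18 and a 95% interval from -0.74 to 1.11. The spread behind this interval was estimated over all 13 libraries, control replicate 21 among them. Without that library the difference was again 0.18, with an unadjusted edgeR p of 0.146 and an adjusted p of 0.471. Postn, the matrix protein periostin, rose by 0.31 in WT bleomycin lungs (edgeR adjusted p = 0.00471), and CB1R KO lay below WT bleomycin libraries without being called (-0.21, adjusted p = 0.204).

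Clca1, a secreted goblet cell protein outside the naming rule and chosen after its values were seen, shared the position of control replicate 21. It held 0.36, 32.2, 0.38 and 1.91 CPM in the controls, 57.1, 57.7, 265, 126 and 25.1 CPM in WT bleomycin and 7.06, 14.2, 47.3 and 6.24 CPM in CB1R KO bleomycin lungs. Among the genes that stood more than 4-fold above the other controls in replicate 21 were thus Arg1, Retnla, Clca1, Slc26a4 and Chil4, 5 of the members and pathway genes. Markers of airway secretory and ciliated cells had 3 of 7 lower calls in WT bleomycin lungs against control, beside 23.9% of all genes. None was called by edgeR between the bleomycin groups, beside 0.979% of all genes. Their summed level ran from 39165 to 58952 TPM in WT and from 36028 to 46328 TPM in CB1R KO bleomycin lungs. Most of this sum was Scgb1a1, at 37546 to 57358 TPM in WT and 33836 to 43982 TPM in CB1R KO bleomycin lungs. WT bleomycin replicates 5 and 4-B2, the highest for Muc5ac, also held the highest sums, 58952 and 58833 TPM. The part of these cells in the values of the airway genes was not tested.

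**Figure D4:**
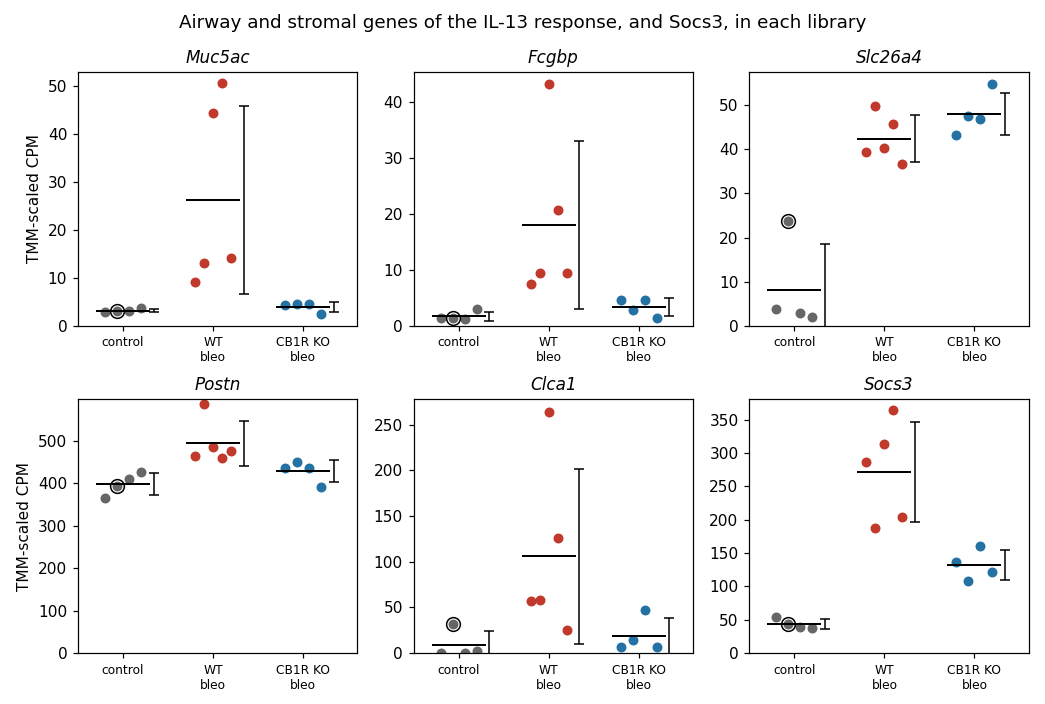
TMM-scaled CPM (linear axis from 0) of 5 airway and stromal genes of the IL-13 response and of Socs3 in each of the 13 libraries. Points are libraries, the line is the group mean, the bar is ± 1 SD (cut off at 0) and the ring marks control replicate 21. Muc5ac, Fcgbp and Socs3 of CB1R KO bleomycin lungs lie below all WT bleomycin libraries, whereas Slc26a4 lies at 36.7 to 54.7 CPM in both bleomycin groups.

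For each member that passed the filter, the 2 genes outside the members with the highest Pearson correlation of log2 CPM over the 13 libraries were listed as a description. The 13 libraries fall into 3 groups, so that the values reflect the group levels as well as the spread within groups. For Il4ra these were Litaf (r = 0.993) and Arpc2 (0.982), for Il13ra1 Hsd17b12 (0.984) and Il1r1 (0.980), and for Stat6 Ankrd33b (0.970) and Dguok (0.969). Retnla was nearest to Ccna1 (0.970) and Clip3 (0.967). Arg1 was nearest to Sprr2a2 (0.931) and AA467197 (0.928), both of which were also among the 12 genes that stood apart in control replicate 21. Il33 was nearest to Pigf (0.926) and Htr7 (0.904), and Il1rl1 to Neb (0.933) and Sec23a (0.926).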

How the data were processed

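Poly(A)-selected lung RNA of 13 mice was sequenced. Per the methods of the study, the authors quantified reads with kallisto (version not given in the sources used here) against Ensembl release 105 (genome build GRCm39 per the labels) and summed coding transcripts to genes. They deposited estimated counts and TPM per gene and library. Estimated counts were rounded, since 70.5% held decimals. The sequences and GENCODE vM21 transcripts are of GRCm38, so no coordinate was taken across builds. Left unused was 1 column of TPM values that matched no sample.

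The counts were fitted with edgeR 4.0.16 (R 4.3.3) in 1 fit of 3 groups with TMM scaling, after filterByExpr by group left 15315 genes, and tested by glmQLFTest with Benjamini-Hochberg adjustment over these genes and a threshold of 0.05. The script was tested on simulated data. The study's methods name DESeq2 on rounded estimated counts, which is an alternative here. Members under the filter were compared in CPM by exact permutation tests (scipy 1.17.1). Alternatives used DESeq2 1.42.0, limma 3.58.1, other scalings, filters and depths, the case of the sample titles, and each library left out in turn. Of the WT bleomycin libraries 2 carry the number 4 (4 and 4-B2). The study's supplement lists lung function separately for both, and their counts differed more (chi-square per degree of freedom 16.7) than those of any other WT bleomycin pair (8.47 to 15.3). No 2 libraries of a group agreed within sampling noise. Depth limits the cytokine genes most: 3 counts of Il13 in WT bleomycin replicate 7 are 0.185 CPM. The members and lists were chosen with earlier results of these data known. Named genes are all 10 members, up to 4 pathway genes per role called between WT bleomycin and control by lowest p, every pathway gene called between CB1R KO and WT bleomycin, and the 2 nearest genes by correlation.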

Additional observations from a re-analysis of the deposited data

Results flagged for a closer look

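In groups of 4 or 5 libraries, a library was flagged where its gap to the nearest other library was too large a share of the group's range (Dixon's criterion). Chance flags about 1 in 20 groups, and 33 groups were tested, of which 5 were flagged. Control replicate 21 was flagged for Arg1 (48.2 CPM, the other controls 1.78 to 1.86), for Retnla (159 CPM, the others 17.9 to 32.2) and for Il13ra2 (0.1803 CPM from 3 counts, the others 0). Control replicate 3 was flagged for Il4ra (51.7 CPM, the others 38.2 to 39.1). WT bleomycin replicate 4-B2 was flagged for Arg1 (69.8 CPM, the others 16.7 to 31.2).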

How the results depend on the processing

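The member counts kept within 1.5 times of 5 (WT bleomycin minus control) and 6 (CB1R KO bleomycin minus control) in 24 alternatives, with 5 to 7 in both when single libraries were left out. Over all genes the fits without single libraries called 6656 to 7753 and 4272 to 5449, in the same order. Between CB1R KO and WT bleomycin lungs, 0 to 1 member was called without single libraries, where 1 to 653 of all genes were. DESeq2 called 1 member there, beside 644 of 15218 genes, and edgeR on the 2 groups only called 1, beside 88 of 15073. The pathway genes called there were 0 to 6 without single libraries, where 1 to 653 of all genes were called. DESeq2 called 8, beside 644 of 15218 genes, and limma on log2(TPM + 1) called 1, beside 109 of 15315. With the letter case of the sample title as a term 0 were called, beside 41 of 15315 genes. In the libraries with lower-case titles only 0 were called, beside 6 of 15314. The pathway genes called between CB1R KO bleomycin and control were 15 to 26 without single libraries, where 4272 to 5449 of all genes were called. Those between WT bleomycin and control were 33 to 38 without single libraries, where 6656 to 7753 of all genes were called. The log2 ratio of Il13ra2 to Il13ra1 with a pseudocount of 1 turned from 0.57 to -0.488 (exact permutation p = 0.0317) for WT bleomycin minus control and moved to -0.618 (p = 0.0286) for CB1R KO bleomycin minus control. With that pseudocount the ratio mainly follows Il13ra1. With 0.1 added and single libraries left out, the ratio differed by 0.307 to 1.02 for WT bleomycin minus control. It differed by -1.42 to -0.708 for CB1R KO minus WT bleomycin and by -0.570 to -0.0875 for CB1R KO bleomycin minus control. In CPM and the same order of comparisons, the differences without single libraries were -0.0433 to 0.0682, -0.0724 to 0.0392 and -0.0336 to 0.0318 for Il4, -0.0786 to 0.000153, -0.0450 to 0.00693 and -0.0976 to -0.0188 for Il13, and 0.203 to 0.329, -0.319 to -0.192 and -0.0127 to 0.0554 for Il13ra2. Among uncalled log2 fold changes, Arg1 in CB1R KO bleomycin minus control turned to -0.070 in lower-case titles only and ranged from -0.083 to 3.171 without single libraries. For CB1R KO minus WT bleomycin, lower-case titles only turned Areg to 0.031 and Rora to 0.085, the title term turned Rora to 0.072 and Slc26a4 to -0.046, and without single libraries Il17rb ranged from -0.257 to 0.003 and Rora from -0.094 to 0.034. The cause of these turns in fold change was not tested. No paired analysis was possible because the groups share no replicate numbers.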
